A study of Mus musculus with 12 samples.

Results

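The 41 genes described here belong to DNA replication and to mitosis, and they were chosen by name as 20 S phase genes and 21 mitosis genes out of the 55487 genes in each of both count tables. They were followed in B16F10 cells, a mouse melanoma line, by sequencing of total RNA and of ribosome-protected fragments (RPF, the pieces of mRNA that translating ribosomes shield from nuclease). Cells had been transduced with a lentivirus and selected with puromycin, and expressed a short hairpin RNA, namely a control (shCtr) or number 2 of those that target Osgep (shOSGEP). Each of the 4 groups (shCtr and shOSGEP, total RNA and RPF) had 3 replicates, which made 12 libraries. All cells shared the transduction and the selection. The shOSGEP groups rest on 1 hairpin sequence, and the transduced cells were a pool in which residual Osgep can differ between transductions. The study describes its experiments as performed on independent transductions, so replicate numbers were read as separate transductions of each hairpin. The fits behind the p-values of single genes leave out the pairing of same-numbered shCtr and shOSGEP libraries. Those p-values therefore measure the spread between transductions together with spread that such pairs share.

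Osgep is the enzyme within KEOPS, a complex that adds t6A to the tRNAs whose codons begin with A (ANN codons). A dividing cell copies its genome in S phase and separates the copies in mitosis. Before S phase, Cdc6 and Cdt1 load the ring of Mcm2 to Mcm7 onto DNA, and Cdc45 and the GINS subunits turn that ring into the moving helicase, while ribonucleotide reductase and thymidylate synthase supply deoxynucleotides. Many S phase genes are transcribed late in G1 by E2F factors. Most mitosis genes are transcribed later, in G2, through CCAAT boxes bound by NF-Y and through the element called CHR (cell cycle genes homology region). Their products, the mitotic cyclins, kinases, motors and kinetochore proteins, are low in cells that are not cycling, which is why Mki67 and Top2a are used to mark proliferating tumour cells.

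Promoters of 33 of the 41 genes were in the RefSeq promoter table (GRCm38.p6; 250 bases before to 50 after the start site), and 8 genes had no entry (Mcm4, Ccne2, Gins1, Gins2, Ccna2, Aurkb, Kif20a and Tpx2). The letters CCAAT were searched on both strands, as was the CHR core TTTGAA. An E2F-like word meant the letters TTCCCGC on either strand. The letters TTGGCGC counted as such a word as well. So did the letters TTCGCGC, and these words can overlap one another. CCAAT was found in 16 of 17 mitosis promoters and in 12 of 17 S phase promoters, against 37.41% of all 32851 promoters. TTTGAA was found in 13 of 17 mitosis promoters and 2 of 17 S phase promoters, against 17.89% of all. An E2F-like word was found in 10 of 17 S phase promoters and 3 of 17 mitosis promoters, against 8.073% of all. The 17 S phase promoters came from 16 genes. A match describes letters and does not show that a factor binds there.

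Stretches of 120 bases were picked as examples of these letters and do not stand for each subgroup as a whole. The promoters of Tyms, Ccne1, E2f1 and Birc5 held none of the letters searched, and those of Mki67, Cdk1 and Ccnb1 held an E2F-like word. Capitals mark the matched letters on either strand. Within these stretches, Mcm5 and Mcm6 carry E2F-like words together with 1 and 2 CCAAT boxes. Ccnb2 carries a row of 3 CCAAT boxes, and Cdc20, Ube2c and Kif11 carry CCAAT together with a CHR core. The Ccnb2 promoter also holds TTTGAA outside its stretch, at positions -167 to -162 and 5 to 10 from the start site. The Mcm5 stretch ends 51 bases before the start site and the others end at the base before it.
Mcm5 (chr8:75109339-75109458, plus strand): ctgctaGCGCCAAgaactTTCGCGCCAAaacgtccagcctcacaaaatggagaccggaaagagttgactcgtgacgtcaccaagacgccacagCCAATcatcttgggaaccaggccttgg
Mcm6 (chr1:128359706-128359825, minus strand): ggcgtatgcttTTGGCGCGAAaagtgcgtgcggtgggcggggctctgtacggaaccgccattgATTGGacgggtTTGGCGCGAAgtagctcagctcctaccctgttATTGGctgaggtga
Ccnb2 (chr9:70421555-70421674, minus strand): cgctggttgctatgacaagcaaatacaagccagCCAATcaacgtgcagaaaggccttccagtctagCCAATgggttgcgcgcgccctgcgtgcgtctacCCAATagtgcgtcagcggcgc
Cdc20 (chr4:118437344-118437463, minus strand): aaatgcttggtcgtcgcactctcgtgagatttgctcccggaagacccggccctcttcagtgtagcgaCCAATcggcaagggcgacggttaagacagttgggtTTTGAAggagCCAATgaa
Ube2c (chr2:164769809-164769928, plus strand): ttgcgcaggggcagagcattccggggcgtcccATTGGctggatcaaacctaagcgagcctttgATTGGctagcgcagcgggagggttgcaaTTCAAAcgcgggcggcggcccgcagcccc
Kif11 (chr19:37376262-37376381, plus strand): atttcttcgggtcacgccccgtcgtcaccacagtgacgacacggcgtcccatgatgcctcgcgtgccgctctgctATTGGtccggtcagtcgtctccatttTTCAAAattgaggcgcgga

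Total RNA libraries held 46.7 to 81.1 M counts (M for mega) and RPF libraries 12.9 to 40.3 M. Levels below are counts per M (CPM) on library sizes scaled by TMM (a factor that removes differences in composition), and 3 values in a row are replicates 1, 2 and 3. Osgep itself was at 13.9, 15.7 and 15.3 CPM in shCtr and 0.589, 6.92 and 6.77 CPM in shOSGEP in total RNA, that is at 4.25% of control in replicate 1 and at 44.0% and 44.4% in replicates 2 and 3. Its fitted change did not pass the test, at -1.65 ± 0.77 (SE, n = 3; unadjusted p = 0.069, adjusted p = 0.97, edgeR). The shOSGEP replicate 1 libraries stood apart from all others, and the RPF library of that replicate had 15.6% of its counts on protein-coding genes, against 29.8% to 48.6% in the other 5. All 7 melanocyte markers were detected, as the label of the line implies. Their summed level was 13106, 16829 and 9660.3 CPM in shCtr and 2654, 12784 and 11385 CPM in shOSGEP, so they too were lowest in shOSGEP replicate 1. Markers of fibroblasts summed to 6.51 to 8.84 CPM in shCtr and 10.1 to 25.2 CPM in shOSGEP, highest in replicate 1, with Col3a1 and Thy1 at 0 counts in total RNA. Those of leukocytes summed to at most 5.56 CPM, with Cd3e, Itgam and Nkg7 at 0 counts, and those of keratinocytes to at most 0.124 CPM, with Krt5 and Krt10 at 0 counts. The part of these differences in the results below was not tested.

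DNA replication and mitosis transcripts were far lower in the shOSGEP cells of replicate 1 than in their control, and slightly lower in replicates 2 and 3. The 20 S phase genes together reached 2810.4, 3639.5 and 3606 CPM of total RNA in shCtr and 954, 3451 and 3203 CPM in shOSGEP, so 33.9%, 94.8% and 88.8% of the control level remained. The 21 mitosis genes together reached 2736, 3674 and 3636 CPM in shCtr and 451, 3392 and 3402 CPM in shOSGEP, with 16.5%, 92.3% and 93.6% left. The shOSGEP replicate 1 library was the lowest of 6 for each of the 41 genes in total RNA, against 35.8% of all genes. The shCtr total RNA library of that replicate was also the lowest of the 3 controls for 18 of 20 S phase and 18 of 21 mitosis genes, against 35.4% of all genes. In RPF the shCtr library of replicate 1 was the lowest control for 4 of 20 S phase and 6 of 21 mitosis genes. The share of all genes was not counted in RPF, so these counts were not read against those in total RNA. In bulk samples, fewer cells in S phase or mitosis and less of these mRNAs per cell cannot be told apart.

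**Figure D1:**
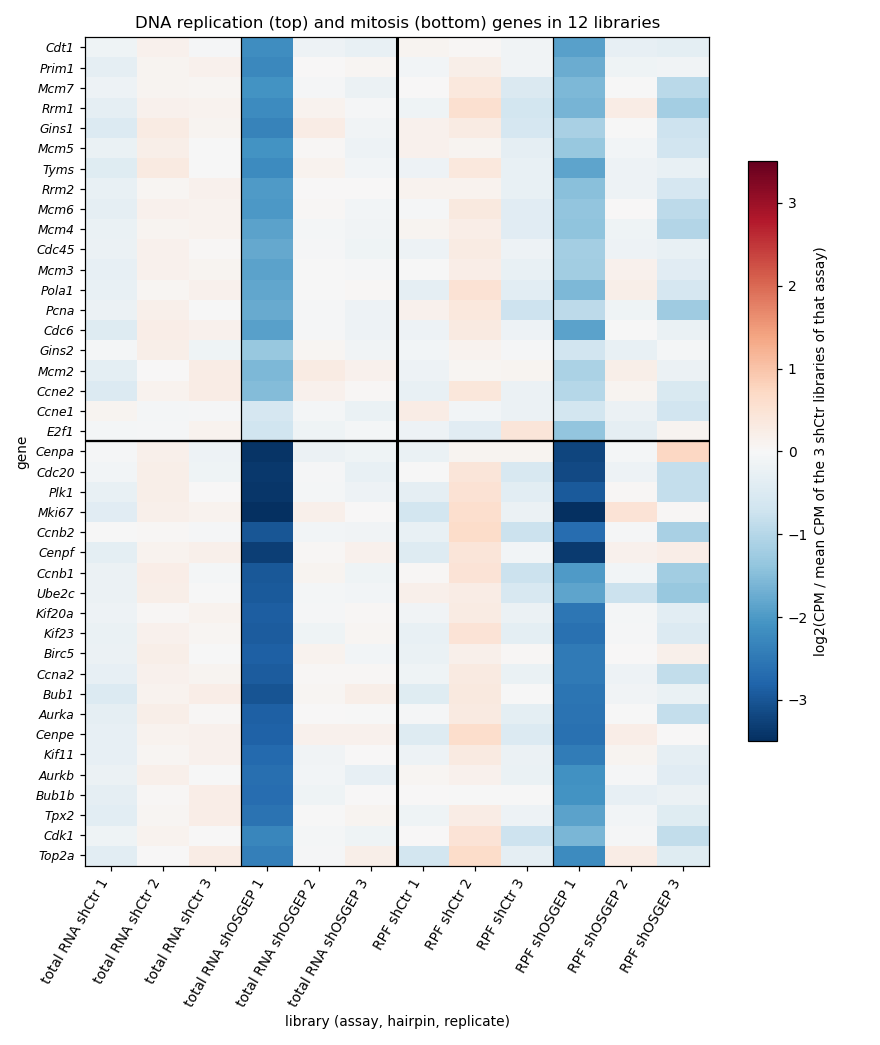
Level of each of the 41 genes (rows, S phase above the black line and mitosis below) in each of the 12 libraries (columns), as log2 of its CPM over the mean of the 3 shCtr libraries of the same assay. Blue is lower and red is higher, and the shOSGEP replicate 1 columns are blue for every gene, deepest for mitosis genes such as Cenpa, Cdc20, Plk1 and Mki67.

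All 41 genes passed the filter on low counts in total RNA and in RPF, and the lowest count of any of them in any library was 33. None passed the test between shCtr and shOSGEP in total RNA at an adjusted p under 0.05 (edgeR quasi-likelihood test with Benjamini-Hochberg adjustment), where 0% of the 14516 genes tested were called. At an unadjusted p under 0.05 none of the 41 was called, against 1.78% of all genes (259). DESeq2 called 8 genes, limma voom 0 and a fit with the replicate number as a block 1, and none of these was among the 41. The smallest adjusted p of any of the 41 under the block was 0.72. By the fit, all 41 genes had a change below 0, with a median of -0.41 (log2) for S phase and -0.52 for mitosis genes beside 0.02 for all genes. Those medians were -0.65 and -0.90 under the block, and -0.15 and -0.13 without replicate 1.

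Changes were next taken within each replicate, as log2 CPM of shOSGEP minus that of the shCtr library of the same number. In total RNA, S phase genes had a median of -1.61, -0.11 and -0.17, and mitosis genes -2.65, -0.16 and -0.08, while the median of all genes was 0.01, 0.01 and 0.00. A difference below -1 in replicate 1 was seen in 18 of 20 S phase and 21 of 21 mitosis genes, against 11.0% of all genes. Both subgroups barely met in that replicate, since S phase genes ranged from -0.63 (E2f1) to -2.04 (Cdt1) and mitosis genes from -2.03 (Top2a) to -3.38 (Cenpa). A lower level in 3 of 3 replicates was seen in 17 S phase and 18 mitosis genes, against 16.2% of all genes. The same 35 of 41 are those lower in both replicates 2 and 3, where 24.6% of all genes were. The differences there were small, and only 4 genes had all 3 shOSGEP libraries below all 3 shCtr libraries (Cdt1, Ccne1, E2f1 and Ccnb2), against 3.09% of all genes.

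**Figure D2:**
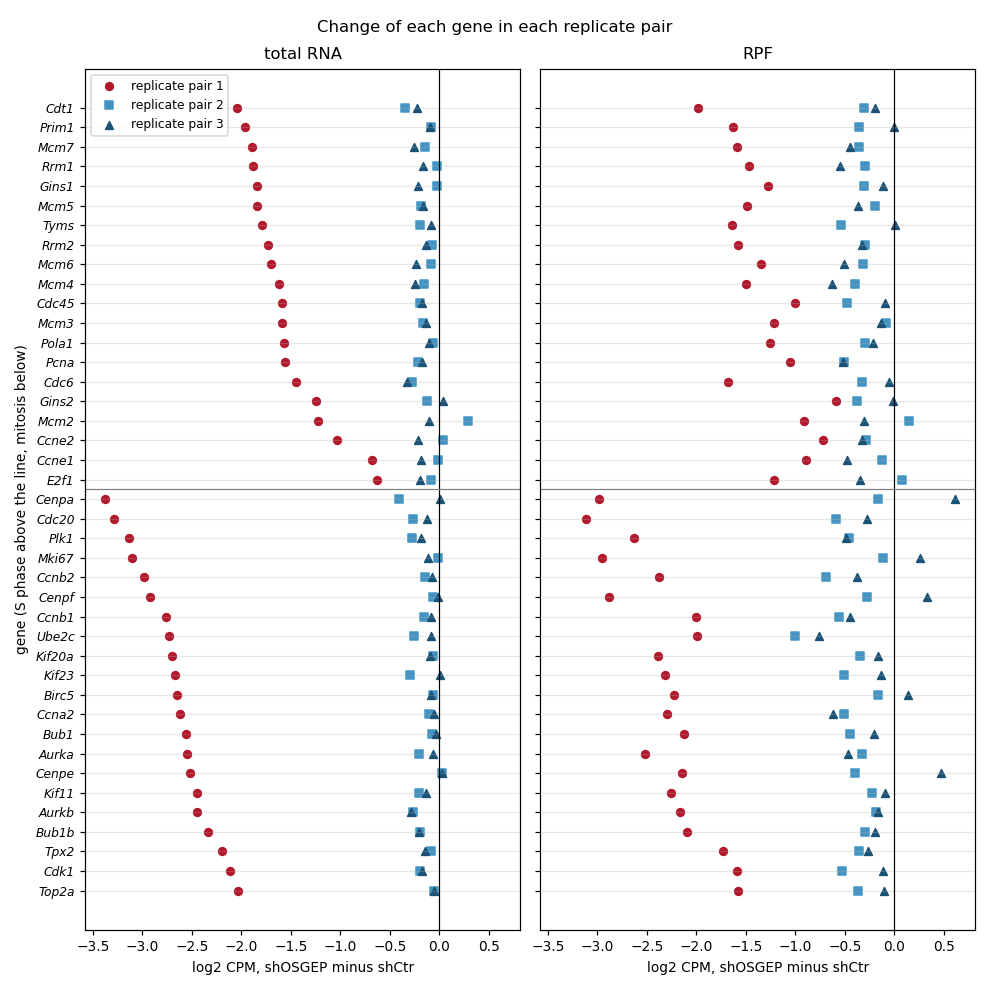
Change of each gene (rows) in total RNA (left) and RPF (right), as log2 CPM of shOSGEP minus shCtr of the same replicate, for replicate 1 (circles), 2 (squares) and 3 (triangles). Circles of mitosis genes lie between -2.03 and -3.38 in total RNA, left of all S phase genes except Cdt1, and squares and triangles there lie between -0.41 and 0.29.

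Among S phase genes, Cdt1 and Cdc6 are the licensing factors. Cdt1 (ENSMUSG00000006585, chromosome 8, 122568015 to 122573554, plus strand; GRCm38 here and below), which brings the Mcm ring to the origin, was at 123, 152 and 132 CPM in shCtr and 30.0, 119 and 113 CPM in shOSGEP. Its libraries did not overlap between groups, and its replicate 1 level was 24.3% of control, the lowest share of the 20. The fitted change of Cdt1 in total RNA was -0.63 ± 0.47 (SE, n = 3; unadjusted p = 0.22, adjusted p = 0.97, edgeR). Cdc6, the partner of Cdt1 in loading, was at 44.0, 70.9 and 66.6 CPM in shCtr and 16.1, 58.3 and 53.0 CPM in shOSGEP. It was lower in each replicate, at 36.7%, 82.3% and 79.6% of control.

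The 6 subunits of the Mcm ring were close to one another in replicate 1, where they kept between 26.9% (Mcm7) and 42.6% (Mcm2) of the control RNA. Mcm2 was at 345, 433 and 521 CPM in shCtr and 147, 529.5 and 483 CPM in shOSGEP. It alone of the 6 was higher in shOSGEP than in shCtr in replicate 2, by 0.29 on the log2 scale. Mcm4 (ENSMUSG00000022673, chromosome 16, 15623897 to 15637400, minus strand) was at 156, 196 and 201 CPM in shCtr and 50.7, 176 and 169 CPM in shOSGEP. Mcm3, Mcm4, Mcm5, Mcm6 and Mcm7 were lower in all 3 replicates, with differences between -0.09 (Mcm6, replicate 2) and -0.26 (Mcm7, replicate 3) outside replicate 1. Their subunits act in equal number in the ring but were not at equal level per length in control cells. Total RNA per kilobase of transcript was 128 ± 26.2 CPM (SD, n = 3) for Mcm2, 103 ± 17.6 for Mcm6 and 88.2 ± 13.6 for Mcm3. It was 73.3 ± 7.80 for Mcm7, 53.2 ± 8.46 for Mcm5 and 51.4 ± 6.87 for Mcm4. Neighbours in that order differed by less than the sum of their SDs, except Mcm7 and Mcm5.

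The partners that make the ring a helicase were low transcripts. Cdc45 was at 37.4, 47.1 and 44.0 CPM in shCtr and 12.4, 41.3 and 39.0 CPM in shOSGEP. Gins1 was at 10.8, 18.4 and 16.3 CPM in shCtr and 2.99, 18.0 and 14.0 CPM in shOSGEP. Gins2 was at 12.6, 15.0 and 11.9 CPM in shCtr and 5.30, 13.8 and 12.2 CPM in shOSGEP, which left 42.2% of control in replicate 1 and no lower level in replicate 3. Pcna (ENSMUSG00000027342, chromosome 2, 132249162 to 132253314, minus strand), the sliding clamp of the DNA polymerases, was at 357, 467 and 405 CPM in shCtr and 121, 401 and 359 CPM in shOSGEP. Its fitted change was -0.48 ± 0.42 (SE, n = 3; unadjusted p = 0.29, adjusted p = 0.97, edgeR). Pola1 and Prim1, of the polymerase alpha and primase complex that starts each new strand, kept 33.8% and 25.6% of control in replicate 1 and between 92.8% and 95.6% in replicates 2 and 3.

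Genes of deoxynucleotide supply were also lowest in shOSGEP replicate 1. Rrm1, the large subunit of ribonucleotide reductase, was at 292, 399 and 394 CPM in shCtr and 79.3, 393 and 351 CPM in shOSGEP. Rrm2 (ENSMUSG00000020649, chromosome 12, 24708241 to 24714146, plus strand), its small subunit, was at 286, 359.8 and 375 CPM in shCtr and 85.9, 342 and 342 CPM in shOSGEP. Tyms, thymidylate synthase, was at 57.3, 95.6 and 76.3 CPM in shCtr and 16.5, 83.3 and 72.0 CPM in shOSGEP, and 28.8% of control remained in replicate 1. Per kilobase of transcript in shCtr, Rrm2 was at 155 ± 21.8 CPM and Rrm1 at 90.5 ± 15.0 CPM (SD, n = 3).

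The G1/S regulators in the S phase list were the least different in replicate 1. E2f1 (ENSMUSG00000027490, chromosome 2, 154559407 to 154569892, minus strand), a transcription factor for S phase genes, was at 80.6, 81.7 and 92.0 CPM in shCtr and 52.0, 77.1 and 80.5 CPM in shOSGEP. It kept 64.5% of control in replicate 1, and its fitted change was -0.28 ± 0.20 (SE, n = 3; unadjusted p = 0.20, adjusted p = 0.97, edgeR). Ccne1 (ENSMUSG00000002068, chromosome 7, 38097984 to 38107534, minus strand), cyclin E1, which activates Cdk2 at the start of S phase, was at 80.1, 71.4 and 72.5 CPM in shCtr and 49.8, 70.5 and 63.8 CPM in shOSGEP. It kept 62.3% in replicate 1, and its fitted change was -0.28 ± 0.17 (SE, n = 3; unadjusted p = 0.14, adjusted p = 0.97, edgeR), the smallest p of the 41 genes in total RNA. In both genes all shOSGEP libraries were below all shCtr libraries, although the replicate 2 library of Ccne1 differed by only -0.02. Ccne2, the second cyclin E, was at 24.4, 37.2 and 41.3 CPM in shCtr and 11.9, 38.0 and 35.5 CPM in shOSGEP, and it was higher in shOSGEP than in shCtr in replicate 2.

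Among mitosis genes, the cyclins and their kinase were at 12.6% to 23.1% of control in replicate 1. Cdk1 (ENSMUSG00000019942, chromosome 10, 69335146 to 69352938, minus strand), the kinase that drives entry into mitosis, was at 128, 156 and 146 CPM in shCtr and 29.6, 137 and 129 CPM in shOSGEP. Its fitted change was -0.54 ± 0.51 (SE, n = 3; unadjusted p = 0.32, adjusted p = 0.97, edgeR). Its partners kept less in replicate 1, with 16.3% of control for Ccna2, 14.8% for Ccnb1 and 12.6% for Ccnb2. Ccnb2, cyclin B2, was at 75.8, 78.9 and 73.4 CPM in shCtr and 9.54, 71.5 and 69.7 CPM in shOSGEP, and it was the only mitosis gene whose groups did not overlap in total RNA. The mitotic kinases were lower in each of the 3 replicates. Aurkb (ENSMUSG00000020897, chromosome 11, 69045647 to 69051664, plus strand), of the chromosomal passenger complex, was at 84.0, 108 and 96.1 CPM in shCtr and 15.4, 90.1 and 78.8 CPM in shOSGEP. Its fitted change was -0.65 ± 0.57 (SE, n = 3; unadjusted p = 0.30, adjusted p = 0.97, edgeR), the smallest p of the mitosis genes in total RNA. Plk1 was at 132, 183 and 161 CPM in shCtr and 14.9, 151 and 141 CPM in shOSGEP. Aurka, a spindle pole kinase, kept 17.0% of control in replicate 1, and its activator Tpx2 kept 21.9%.

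Genes of the kinetochore and of the spindle checkpoint gave the lowest single value. Cenpa (ENSMUSG00000029177, chromosome 5, 30666777 to 30674830, plus strand), the histone H3 variant of centromeres, was at 71.6, 84.4 and 65.9 CPM in shCtr and 6.86, 63.6 and 66.3 CPM in shOSGEP. Its replicate 1 level was 9.59% of control, the lowest share of the 41, while replicate 3 did not differ by more than 0.01 on the log2 scale. The fitted change of Cenpa was -0.70 ± 0.71 (SE, n = 3; unadjusted p = 0.36, adjusted p = 0.97, edgeR). Cenpe, a kinetochore motor, was at 68.1, 91.1 and 92.4 CPM in shCtr and 11.8, 92.8 and 93.8 CPM in shOSGEP, and it was the only mitosis gene above control in both replicates 2 and 3. Cenpf kept 13.2% of control in replicate 1, and the spindle checkpoint proteins Bub1 and Bub1b kept 17.0% and 19.8%. Birc5 (survivin), a passenger complex subunit, kept 15.9%.

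The motors Kif11, Kif20a and Kif23, which act on the spindle and in cytokinesis, kept 18.2%, 15.4% and 15.7% of control in replicate 1. Cdc20 (ENSMUSG00000006398, chromosome 4, 118432901 to 118437352, minus strand), which activates the anaphase-promoting complex, was at 75.5, 93.8 and 72.9 CPM in shCtr and 7.71, 78.1 and 66.9 CPM in shOSGEP. Its fitted change was -0.67 ± 0.71 (SE, n = 3; unadjusted p = 0.38, adjusted p = 0.97, edgeR). Ube2c, the ubiquitin-conjugating enzyme of that complex, kept 15.0% in replicate 1. Mki67, the gene of the Ki-67 proliferation marker, was at 525, 783 and 756 CPM in shCtr and 61.1, 776 and 699.8 CPM in shOSGEP. Top2a, topoisomerase II alpha, was at 384, 499.9 and 595 CPM in shCtr and 93.9, 483 and 573 CPM in shOSGEP, and its 24.4% in replicate 1 was the highest share among the mitosis genes. For both markers the replicate 1 library lay far outside the other 5, and replicates 2 and 3 kept 92.6% to 99.1% of control.

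In replicate 1 the footprints were lower along with the RNA. RPF of the 20 S phase genes summed to 1284, 1567 and 1066 CPM in shCtr and 524, 1326 and 839 CPM in shOSGEP, which is 40.8%, 84.6% and 78.7% of control. RPF of the 21 mitosis genes summed to 1005, 1774 and 1065 CPM in shCtr and 220.2, 1430.5 and 1079 CPM in shOSGEP. Those sums were 21.9%, 80.6% and 101% of control. In replicate 3 the median over single mitosis genes was lower than the sum, at 89.0% of control. None of the 41 genes passed the RPF test at an adjusted p under 0.05, where 0% of 13529 genes were called (edgeR; DESeq2 called 1 gene, limma voom 0). At an unadjusted p under 0.05 the fit gave 1 of the 41, Ube2c, against 1.03% of all genes (139). The block gave 9 of the 41, against 549 of all 13529 genes tested (edgeR). The median fitted change in RPF was -0.52 for S phase and -0.64 for mitosis genes, beside 0.05 for all genes, and it was -0.29 and -0.33 without replicate 1.

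Across the 41 genes, differences in RPF and in total RNA had a Spearman rho of 0.93, 0.34 and 0.32 in replicates 1, 2 and 3, as a description over genes that share libraries. Within replicates the RPF medians were -1.31, -0.30 and -0.32 for S phase and -2.26, -0.37 and -0.17 for mitosis genes. A difference below -1 in replicate 1 was seen in 16 S phase and 21 mitosis genes, against 14.4% of all genes. A lower level in 3 of 3 replicates was seen in 17 S phase and 16 mitosis genes, against 15.2% of all genes. All 3 shOSGEP libraries lay below all 3 shCtr libraries for 5 genes (Cdt1, Ccne1, Prim1, Bub1b and Ube2c), against 2.64% of all genes. In replicate 3, 16 of 21 mitosis genes had fewer footprints in shOSGEP than in shCtr, against 49.8% of all genes. The other 5 had more, namely Cenpa, Cenpe, Cenpf, Mki67 and Birc5, by 0.14 (Birc5) to 0.62 (Cenpa) on the log2 scale.

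Ube2c (ENSMUSG00000001403, chromosome 2, 164769898 to 164778822, plus strand), whose promoter is shown above, was the gene with the smallest p in RPF. Its footprints were at 16.3, 17.4 and 9.82 CPM in shCtr and 4.04, 8.69 and 5.77 CPM in shOSGEP, with no overlap between groups and differences of -1.99, -0.999 and -0.76. The fitted RPF change was -1.23 ± 0.38 (SE, n = 3; unadjusted p = 0.015, adjusted p = 1.00, edgeR). Its total RNA differed by -2.73, -0.25 and -0.08, so outside replicate 1 the footprints differed more than the RNA. Ccna2 (ENSMUSG00000027715, chromosome 3, 36564865 to 36572150, minus strand), cyclin A2, had footprints at 29.0, 40.4 and 27.7 CPM in shCtr and 5.85, 28.4 and 18.0 CPM in shOSGEP and a fitted change of -0.89 ± 0.53 (SE, n = 3; unadjusted p = 0.14, adjusted p = 1.00, edgeR). Those of Ccnb1 (ENSMUSG00000041431, chromosome 13, 100778650 to 100786570, minus strand), cyclin B1, were at 37.0, 50.1 and 21.3 CPM in shCtr and 9.15, 33.9 and 15.6 CPM in shOSGEP, and the fitted change was -0.88 ± 0.54 (SE, n = 3; unadjusted p = 0.15, adjusted p = 1.00, edgeR). For both cyclins the spread among the shCtr libraries reached down to the shOSGEP values of another replicate.

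Of the S phase genes, Mcm4 had the smallest p in RPF. Its footprints were at 72.9, 80.6 and 51.7 CPM in shCtr and 25.7, 61.1 and 33.5 CPM in shOSGEP, and the fitted change was -0.77 ± 0.39 (SE, n = 3; unadjusted p = 0.088, adjusted p = 1.00, edgeR). Ccne1 followed, with footprints at 40.9, 32.4 and 30.1 CPM in shCtr and 21.9, 29.7 and 21.6 CPM in shOSGEP and a fitted change of -0.50 ± 0.26 (SE, n = 3; unadjusted p = 0.099, adjusted p = 1.00, edgeR). Rrm2 footprints were at 101, 102 and 78.1 CPM in shCtr and 33.9, 82.8 and 62.3 CPM in shOSGEP, with a fitted change of -0.65 ± 0.37 (SE, n = 3; unadjusted p = 0.12, adjusted p = 1.00, edgeR). Per kilobase of coding sequence in shCtr, footprints of the Mcm ring ran from 62.7 ± 6.67 CPM (SD, n = 3) for Mcm2 and 57.0 ± 9.89 for Mcm3 to 27.9 ± 4.65 for Mcm5 and 26.5 ± 5.79 for Mcm4. Mcm6 at 44.0 ± 11.0 and Mcm7 at 43.0 ± 12.4 lay between and did not differ beyond their spread.

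Translational efficiency (RPF over total RNA) was examined next, since t6A acts in decoding. No gene of the 41 passed the test of this ratio (interaction of assay and hairpin in edgeR) at an adjusted p under 0.05, where 0% of 12560 genes were called, and none did at an unadjusted p under 0.05, against 0.135% of all genes (17). DESeq2, limma voom and the block also called 0 genes. The edgeR fit treated the 12 libraries as independent, although RPF and total RNA were read as coming from 6 cell samples. Its SEs therefore include spread that both assays of a cell sample can share. With each cell sample as a block, 70 of the 12560 genes had an unadjusted p under 0.05 (edgeR), and 0 of the 41 were among them. The direction differed between replicates. The change of the ratio had medians of 0.32, -0.23 and -0.13 for S phase and 0.37, -0.27 and -0.07 for mitosis genes beside 0.01, -0.01 and -0.02 for all genes. In replicate 1 it was above 0 for 17 of 20 S phase and 21 of 21 mitosis genes, against 50.9% of all genes. In replicate 2 it was below 0 for 17 and 19, against 52.2% of all genes. Only Ccne1 was lower in 3 of 3 replicates, against 11.2% of all genes. The shOSGEP replicate 1 RPF library behind the first of these values was also the one with the lowest protein-coding share, and the part of that in the ratio was not tested.

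**Figure D3:**
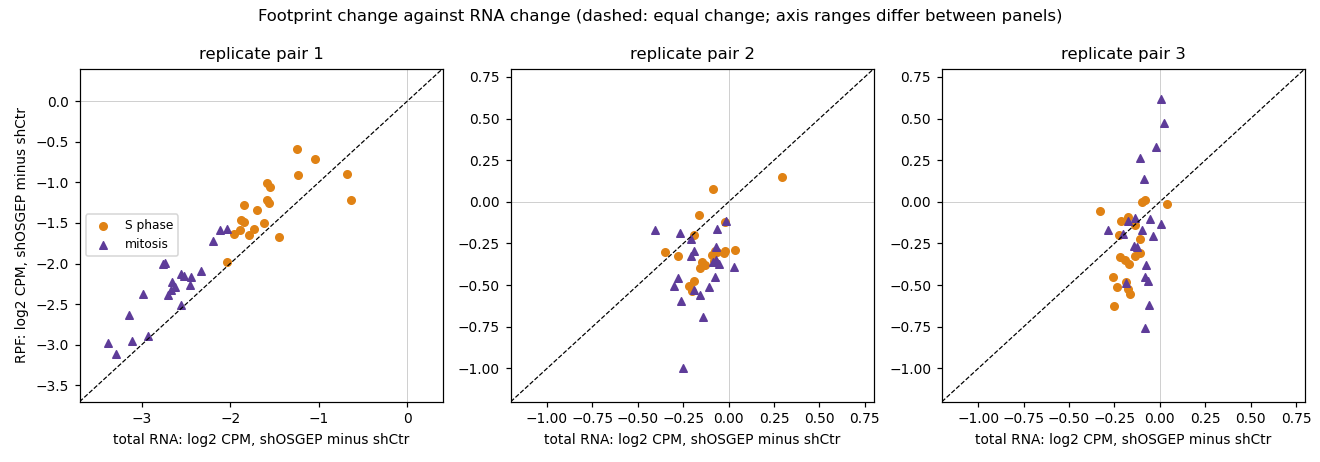
Difference in RPF against change in total RNA (both log2 CPM, shOSGEP minus shCtr) for the 41 genes in each replicate, with S phase genes as circles and mitosis genes as triangles. Points lie above the dashed line of equal change for 38 of 41 genes in replicate 1 and mostly below it in replicate 2, and the axis range of the first panel is wider.

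The RPF over RNA ratio of Ccne1 was 0.511, 0.453 and 0.416 in shCtr and 0.440, 0.422 and 0.338 in shOSGEP, with a fitted change of -0.22 ± 0.29 (SE, n = 3; unadjusted p = 0.47, adjusted p = 1.00, edgeR). That of Mcm4 was 0.467, 0.411 and 0.257 in shCtr and 0.507, 0.348 and 0.198 in shOSGEP, with a fitted change of -0.28 ± 0.61 (SE, n = 3; unadjusted p = 0.65, adjusted p = 1.00, edgeR). The ratio of Ube2c was 0.168, 0.137 and 0.0891 in shCtr and 0.278, 0.0811 and 0.0555 in shOSGEP, so it was above control in replicate 1 and below it in the others, and the fitted change was -0.65 ± 0.80 (SE, n = 3; unadjusted p = 0.43, adjusted p = 1.00, edgeR). The ratio of Cenpa was higher in shOSGEP in each replicate, at 0.398, 0.420 and 0.540 in shCtr and 0.517, 0.496 and 0.823 in shOSGEP, with a fitted change of 0.56 ± 1.14 (SE, n = 3; unadjusted p = 0.64, adjusted p = 1.00, edgeR). Cenpa and Aurkb were the only mitosis genes whose ratio was higher in 3 of 3 replicates, and Cdt1 was the only such S phase gene, against 11.6% of all genes.

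The rest of the pathway was read from lists of genes that are not among the 41. Of 50 other DNA replication genes, none was called in total RNA, RPF or the ratio at an adjusted p under 0.05 by edgeR. In total RNA of replicate 1, 37 of the 50 were lower by more than 1 on the log2 scale, against 11.0% of all genes. The median of the list was -1.43, -0.11 and -0.18. Rrm2b, the stress-induced small subunit of ribonucleotide reductase, had the smallest p of this list and went the other way from Rrm2. It was at 24.2, 22.2 and 30.7 CPM in shCtr and 74.1, 28.1 and 36.0 CPM in shOSGEP, higher in shOSGEP in each replicate, with a fitted change of 0.84 ± 0.37 (SE, n = 3; unadjusted p = 0.057, adjusted p = 0.97, edgeR). Asf1b, a histone chaperone, was at 41.5, 56.1 and 48.8 CPM in shCtr and 15.9, 41.6 and 41.2 CPM in shOSGEP and had a fitted change of -0.57 ± 0.36 (SE, n = 3; unadjusted p = 0.16, adjusted p = 0.97, edgeR) in total RNA. Of 60 other mitosis genes none was called either, and the median of the list was -2.03, -0.10 and -0.11. Of these, 56 were lower by more than 1 in total RNA of replicate 1, against the same 11.0% of all genes. Cdca5 (sororin), which protects sister chromatid cohesion, differed by -1.52, -0.35 and -0.32, with a fitted change of -0.60 ± 0.39 (SE, n = 3; unadjusted p = 0.17, adjusted p = 0.97, edgeR). Cdc25b, a phosphatase that activates Cdk1, differed by -1.93, -0.31 and -0.14, with a fitted change of -0.58 ± 0.45 (SE, n = 3; unadjusted p = 0.24, adjusted p = 0.97, edgeR).

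**Figure D4:**
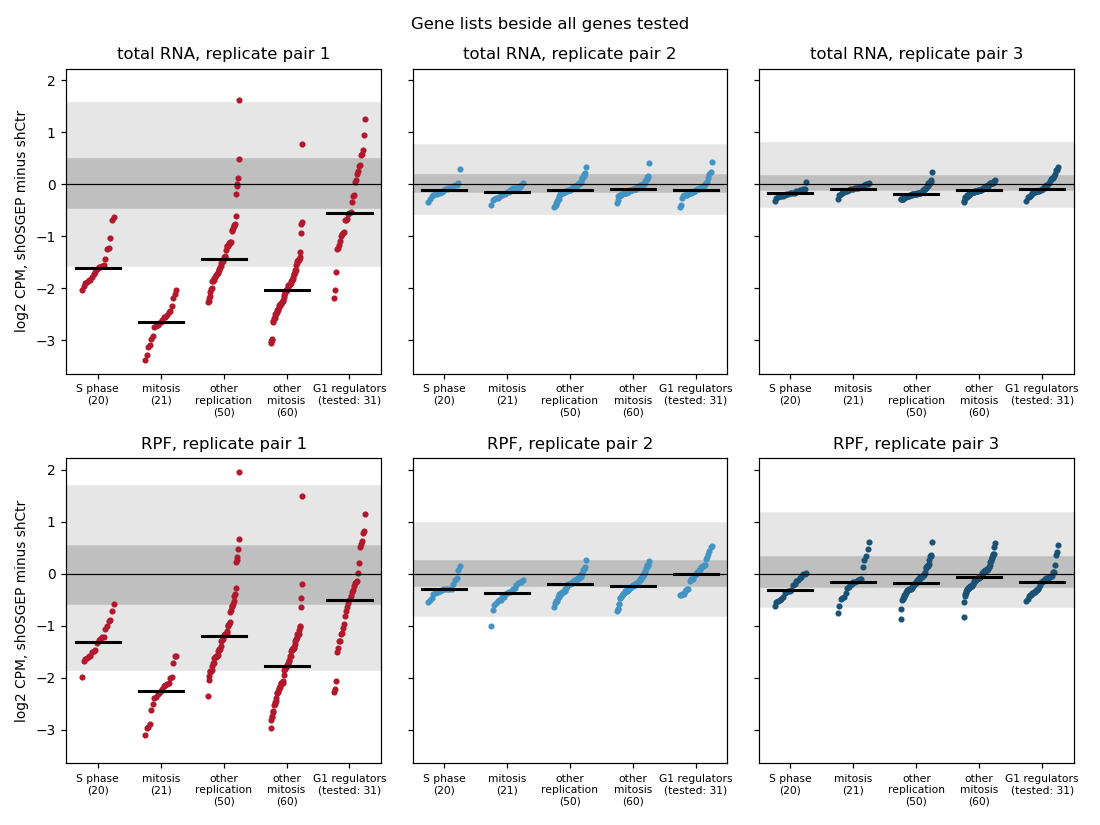
Change (log2 CPM, shOSGEP minus shCtr) of single genes by list (columns of points, black bar at the median) in each replicate, for total RNA (top) and RPF (bottom). Light and dark grey bands hold the middle 90% and 50% of all genes tested, and in replicate 1 the mitosis genes lie below the light band in total RNA while in replicates 2 and 3 nearly all points lie inside it.

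Regulators of G1 and cell cycle inhibitors formed a list of 34 genes, of which 31 passed the filter and none was called. Cdkn2a and Cdkn2b, inhibitors of Cdk4 and Cdk6, had 0 counts in all 6 total RNA libraries. The list median was -0.55, -0.11 and -0.10 in total RNA. In replicate 1, 8 of 31 genes were lower by more than 1, against 11.0% of all genes. Cdkn1a (p21), the inhibitor induced by p53, was at 443, 268 and 347 CPM in shCtr and 570.3, 317 and 375 CPM in shOSGEP, with a fitted change of 0.25 ± 0.28 (SE, n = 3; unadjusted p = 0.39, adjusted p = 0.97, edgeR). It was higher in each replicate by less than the range of the 3 controls. Ccnd1, cyclin D1, was at 529, 381 and 481 CPM in shCtr and 604, 331 and 581 CPM in shOSGEP, with a fitted change of 0.12 ± 0.26 (SE, n = 3; unadjusted p = 0.65, adjusted p = 0.98, edgeR). Ccnd2, cyclin D2, was at 2064, 1411 and 1513 CPM in shCtr and 4951, 1324 and 1916 CPM in shOSGEP and highest in shOSGEP replicate 1, with a fitted change of 0.72 ± 0.48 (SE, n = 3; unadjusted p = 0.18, adjusted p = 0.97, edgeR). Myc was at 82.8, 177 and 206 CPM in shCtr and 65.2, 179 and 193 CPM in shOSGEP, with a fitted change of -0.09 ± 0.48 (SE, n = 3; unadjusted p = 0.86, adjusted p = 0.99, edgeR), and both of its replicate 1 libraries lay below the other 4. Cdkn2d (p19), the inhibitor with the smallest p in the list, differed by -0.58, -0.22 and -0.16, with a fitted change of -0.32 ± 0.15 (SE, n = 3; unadjusted p = 0.064, adjusted p = 0.97, edgeR). Ccnd1, Ccnd2 and Cdkn1a were not lower in replicate 1, while Myc and Cdkn2d were, as was each of the 41 genes. Of the 31 tested genes of this list, 20 were lower in total RNA of that replicate, against 49.6% of all genes.

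Codon content was compared because t6A tRNAs read ANN codons. ANN codons made up a median of 28.2% of the coding sequence in S phase genes and 29.7% in mitosis genes, beside 27.0% of 11271 tested genes with a coding sequence (GENCODE M21, one transcript per gene). They were richest in Mki67 (36.4% of 3177 codons), Cenpe (35.1%), Kif11 (35.0%) and Top2a (34.6%), and poorest in E2f1 (18.8% of 430) and Cdt1 (22.1%). The densest stretch of 30 codons is shown for the gene at each end of that range, with ANN codons in capitals (coding strand, GRCm38). Being the densest, these stretches do not show the share over the whole coding sequence. That of Mki67 lies in exon 12 (codons 989 to 1018) and holds 18 ANN codons, and that of E2f1 lies in exon 3 (codons 154 to 183) and holds 13.
Mki67 (chr7:135700250-135700339, minus strand): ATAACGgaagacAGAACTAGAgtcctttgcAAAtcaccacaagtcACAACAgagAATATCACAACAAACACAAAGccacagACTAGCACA
E2f1 (chr2:154563903-154563992, minus strand): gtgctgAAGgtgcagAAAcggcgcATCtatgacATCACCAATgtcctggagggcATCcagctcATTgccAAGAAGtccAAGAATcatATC

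Across the 41 genes, the ANN share had a Spearman rho of 0.17, -0.15 and 0.14 with the change of the ratio in replicates 1, 2 and 3, a description over genes that share libraries and depth. With the change in total RNA, rho was -0.14, 0.35 and 0.36. Mki67, with the highest ANN share, had a ratio of 0.349, 0.552 and 0.328 in shCtr and 0.387, 0.515 and 0.424 in shOSGEP, which differed by 0.15, -0.10 and 0.37 on the log2 scale. E2f1, with the lowest, had a ratio of 0.499, 0.422 and 0.668 in shCtr and 0.333, 0.473 and 0.598 in shOSGEP, which differed by -0.58, 0.16 and -0.16. E2f1 thus had the lowest change of the ratio among the 41 genes in replicate 1, and the highest among the S phase genes in replicate 2.

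**Figure D5:**
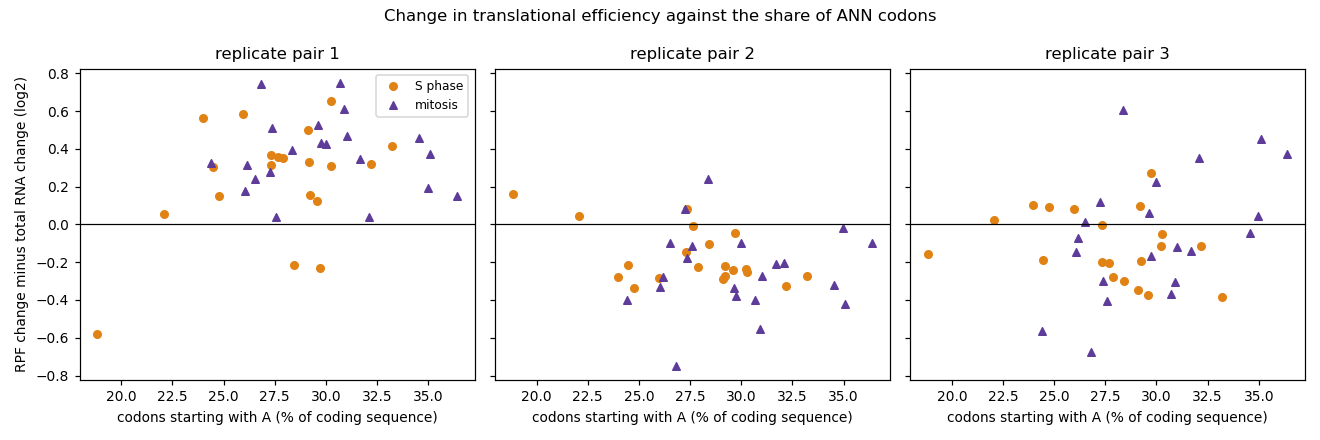
Change of the RPF to total RNA ratio (log2, shOSGEP minus shCtr) against the share of ANN codons in the coding sequence (%) for S phase (circles) and mitosis (triangles) genes in each replicate. Most points lie above 0 in replicate 1 and below 0 in replicate 2, and E2f1 is the leftmost point.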

How the data were processed

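The deposited tables held whole-number read counts per Ensembl gene, made by the authors with no normalisation, for RPF and total RNA. RPF were made by the authors with cycloheximide, nuclease digestion, capture of active ribosomes with a puromycin analogue, size selection and amplification. The submitters' processing notes name FastQC 0.11.9, Trim Galore 0.6.6, cutadapt and STAR. The build and annotation behind the counts are uncertain, because the methods name GRCm38 and the reporting summary GRCm39, and the counting step, its use of strand and the kit of the total RNA libraries were not given in the sources used here. Reads shared with pseudogenes or overlapping genes may therefore have been split or lost. No molecular identifiers were described, so counts are not independent molecules.

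Each fit used edgeR 4.0.16 under R 4.3.3, with its quasi-likelihood test (filterByExpr, TMM, Benjamini-Hochberg adjustment over all genes, threshold 0.05), for total RNA and RPF separately and for translational efficiency as the interaction of assay and hairpin over all 12 libraries. The scripts were tested on simulated data. Log2 CPM used a prior count of 2. Each SE printed with a fitted change was derived as the absolute log2 change over the square root of the F statistic of that test. The n beside it is the number of replicates per group. Alternatives were DESeq2 1.42.0, limma voom 3.58.1, other scaling and filters, a replicate block, and leaving out each library or replicate. Names, biotypes and coordinates came from GENCODE M21 (55227 gene IDs matched, 260 did not), and levels per kilobase used the transcript with the longest coding sequence. No column was left without a sample.

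Replicate numbers came from the labels. Deviations of same-numbered shCtr and shOSGEP libraries from their group means correlated at 0.52, 0.54 and 0.29 for total RNA of replicates 1, 2 and 3. For RPF the correlations were 0.59, 0.51 and 0.66. Each was over 0.1, so the numbers were taken to pair the samples and the block was fitted as an alternative. The SEs and p-values printed for single genes come from the fits without the block, which leave this pairing out. Replicates were compared by chi-square over genes, which was at least 81.1 per degree of freedom, so no library repeated another within sampling noise.

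All 41 genes are named. Full fit statistics are given, in each subgroup, for the 4 genes with the smallest unadjusted p in total RNA, 3 in RPF and 2 in translational efficiency, and for 2 genes of each other list, Cdkn1a, Ccnd1, Myc and Osgep. The genes and lists were chosen with earlier results of these data known.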

Additional observations from a re-analysis of the deposited data

How the results depend on the processing

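The count of genes called in total RNA was 0 and became 8 with DESeq2 and 1 with the replicate block. In RPF it was 0 and became 229 without the filter on low counts and 1 with DESeq2. None of these calls was among the 41 genes, and under the pairing by replicate block no other call changed. In translational efficiency it was 0 under every alternative run. The median change of S phase genes in total RNA ranged from -0.75 (without shOSGEP replicate 2) to -0.03 (without shOSGEP replicate 1) when single libraries or replicates were left out, and that of mitosis genes from -0.84 to -0.03 with the same libraries. In RPF the ranges were -0.88 to -0.27 and -1.06 to -0.25. In translational efficiency they were -0.28 to 0.08 and -0.35 to 0.10, so the sign of that median was not kept. With limma voom the medians in translational efficiency were 0.09 and 0.23, against -0.13 and -0.15. Of 288 values of single named genes under the alternatives, 287 kept their sign, and the exception was the ratio of Mcm4 without shOSGEP replicate 3 (0.064, in a range from -0.515). The cause was not tested. The counts of S phase and mitosis genes lower in every replicate were 17 and 18 in total RNA, while those in RPF were 17 and 16. With RLE scaling they were 17 and 18, and 18 and 16. They were 17 and 18, and 17 and 16, when replicate 1 was left out, an alternative chosen after seeing the data. That alternative could not change the counts, because each of the 41 genes was lower in replicate 1 in both assays. Its rule is also looser. Among all genes, 24.6% (total RNA) and 28.3% (RPF) were lower in both replicates 2 and 3, beside 16.2% and 15.2% in every replicate. The lowest member count of 33 limits the RPF values of shOSGEP replicate 1 most.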
